A study of Mus musculus with 3 samples.

Results

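In the libraries of stimulated CD4+ T cells, 7341 of 24252 cell barcodes held few unique molecular identifiers (UMIs, each counting 1 captured RNA molecule) and a high share of RNA from the mitochondrial genome. These low-UMI mitochondria-rich barcodes were chosen by measured values: a total under 4056 UMIs, with the 13 mitochondria-encoded mRNAs (names beginning with mt-) making up 4% or more of them. They numbered 2454 of 10320 barcodes in the WT library and 4887 of 13932 in the IFT20-KO library, out of 32505 barcodes in the whole series. Within each library they were set against the barcodes with 6000 or more UMIs and a mitochondrial share under 4%, called high-UMI barcodes here, of which there were 7399 in WT and 6776 in IFT20-KO.

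The cells were naive CD4+ T cells enriched from the spleens of C57BL/6 mice and sorted as 7AAD-negative, CD3+ and CD4+ before capture, and the 7AAD dye gate removes cells whose membrane is open at the time of sorting. The WT mice were Ift20 f/f and the IFT20-KO mice Ift20 f/f CD4 cre, in which the Cd4 promoter drives Cre from the thymus onwards, so deletion covers T cells that have expressed Cd4. The cells of both stimulated libraries had 24 h with antibodies against CD3 and CD28, each at 1 μg/mL, and another library held unstimulated WT (Ift20 f/f) cells kept in buffer. Each condition had 1 library, so no difference between conditions was tested. All intervals are exact 95% intervals of the counts, which cover counting error only, since UMIs of 1 barcode and barcodes of 1 library are not independent samples. The libraries held 117734032 UMIs for stimulated WT, 106459650 for stimulated IFT20-KO and 37325332 for unstimulated WT.

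A T cell carries most of its mRNA in the cytosol, on free ribosomes. mRNAs for membrane and secreted proteins are translated at the endoplasmic reticulum (ER), some long noncoding RNAs stay in the nucleus where they are made, and the mRNAs of the mitochondrial genome stay inside the organelle. Droplet libraries with few UMIs and a high mitochondrial share are commonly set aside as damaged or dying cells, because a cell that leaks cytosol keeps its organelles longer. The values below describe which RNAs were held by such barcodes in activated T cells.

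The mitochondria-rich barcodes made up 23.8% of the stimulated WT library (95% Clopper-Pearson interval, 22.96% to 24.6%) and 35.1% of the stimulated IFT20-KO library (34.3% to 35.9%). This order rests on the limits, since with 2028 UMIs the shares were 14.95% in WT and 5.97% in IFT20-KO, and with a mitochondrial limit of 8% they were 20.8% and 7.84%. The same limits gave 13.8% of the unstimulated WT library, or 1143 of 8253 barcodes. Their median total was 1845.5 UMIs in WT and 2426 in IFT20-KO, against 14086 and 12021.5 in high-UMI barcodes. The median number of genes was 1090 and 1339, against 3297 and 3075. Mitochondrial mRNAs took a median of 11.4% of UMIs in WT and 6.47% in IFT20-KO, against 1.25% and 1.06%. These values describe the choice and are no finding.

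**Figure D1:**
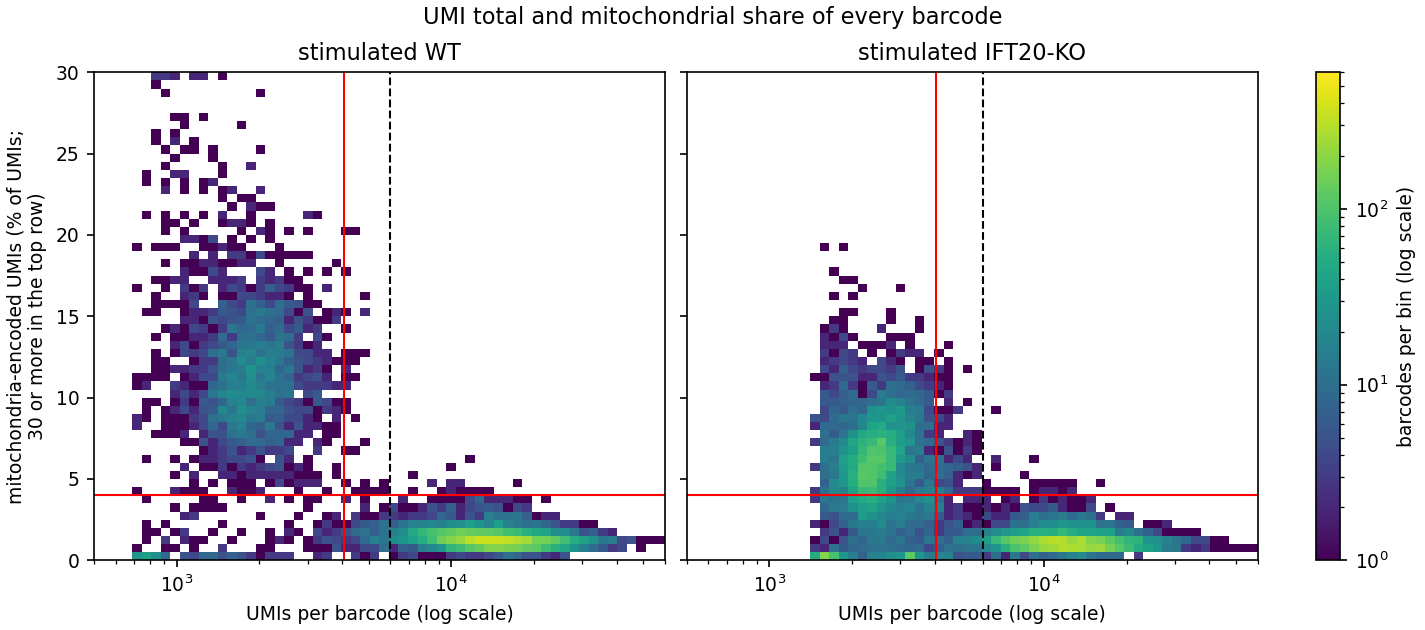
UMIs per barcode (log scale) against mitochondria-encoded UMIs as a percentage of UMIs, for every barcode of the stimulated WT and IFT20-KO libraries, with the colour giving barcodes per bin on a log scale. Red lines mark the limits of 4056 UMIs and 4%, and the dashed line 6000 UMIs. In WT the low-UMI mitochondria-rich barcodes form a cloud apart from the high-UMI barcodes, while in IFT20-KO the cloud lies lower and reaches down across the 4% line.

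The mitochondrial limit cut the libraries in different places. In WT, 90.5% of barcodes under 4056 UMIs were mitochondria-rich and only 15 had a share between 3% and 4%, against 32 between 4% and 5%. In IFT20-KO the figure was 73.1%, with 563 barcodes between 3% and 4% and 853 between 4% and 5%, so the limit ran through a continuous range. Of barcodes with 6000 or more UMIs, 0.243% in WT and 0.368% in IFT20-KO reached the 4% limit. Between 4056 and 6000 UMIs lay 190 barcodes in WT, of which 27 were mitochondria-rich, and 443 in IFT20-KO, of which 161 were. The highest UMI total of a chosen barcode was 4024 in WT and 4043 in IFT20-KO, and the next mitochondria-rich barcodes above the limit had 4059 and 4058.

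The smallest barcode deposited had 709 UMIs in WT and 1493 in IFT20-KO, so the libraries were called to different depths. With all libraries held to at least 1493 UMIs, the share in WT was 19.9%, in IFT20-KO it remained 35.1%, and in unstimulated WT it was 2.47% (178 of 7219), against 13.8% of all its barcodes. The filter stated in the study (more than 200 genes and a mitochondrial share under 15%) leaves out 412 of the 2454 WT barcodes and 12 of the 4887 IFT20-KO barcodes. The WT and IFT20-KO libraries shared 207 barcode sequences, and 15 chosen barcodes were among them.

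The mean was 225 mitochondrial UMIs per barcode against 193 in WT (117% of the high-UMI level) and 170 against 147 in IFT20-KO (116%). Nuclear-encoded UMIs stood at 11.4% of the high-UMI level in WT and 18.1% in IFT20-KO. In the unstimulated library the same limits gave 69.9% for mitochondrial and 14.1% for nuclear-encoded UMIs. Both limits of the rule act on these values, so they describe the choice. The mitochondrial mRNAs did not keep fixed proportions: mt-Nd4, a subunit of complex I, stood at 94.2% of its high-UMI level per barcode in WT and 96.7% in IFT20-KO, while mt-Cytb, of complex III, stood at 130% and 128%, mt-Nd6 at 139% and 143%, and mt-Atp8 at 141% and 133%.

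Because the mitochondrial share chose the barcodes, gene levels are given as UMIs per 1000000 nuclear-encoded UMIs (CPM), summed over barcodes, and the log2 ratio compares low-UMI mitochondria-rich with high-UMI barcodes of the same library. A gene was counted as past 2-fold where the whole interval of its ratio lay beyond 2-fold. The second scale is UMIs per barcode as a percentage of the high-UMI level, on which a gene at the nuclear average sits at 11.4% in WT and 18.1% in IFT20-KO. On the first scale the median of all genes was not at 0: it was 0.95 in WT (12698 genes with at least 10 UMIs) and 0.76 in IFT20-KO (12672 genes). Most genes thus took a larger share, while fewer genes with many UMIs, such as those of ribosomal proteins, took a smaller one. Each list median below is to be read against those values.

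The 3 RNAs that gave these barcodes their label were all high. Malat1, a nuclear noncoding RNA (chr19:5795690-5802672, minus strand, GRCm38), stood at 10420 CPM in WT against 1141 in high-UMI barcodes, a log2 ratio of 3.19 (3.18 to 3.21), and at 6998 against 1236 in IFT20-KO, a log2 ratio of 2.50 (2.49 to 2.51). Per barcode this was 104% of the high-UMI level in WT (103% to 105%) and 102% in IFT20-KO. Neat1 (chr19:5824708-5845478, minus strand), the scaffold of nuclear paraspeckles, stood at 106 CPM against 12.3 in WT and 56.8 against 12.9 in IFT20-KO, with log2 ratios of 3.11 and 2.13, or 98.6% (88.3% to 110%) and 79.4% (72.0% to 87.6%) per barcode. Kcnq1ot1 (chr7:143203458-143296549, minus strand), an imprinted antisense RNA that stays on its chromosome, stood at 883 against 41.9 in WT and 621 against 49.2 in IFT20-KO, with log2 ratios of 4.40 and 3.66. Malat1 was thus about level per barcode in both libraries, while Kcnq1ot1 was above its high-UMI level, at 240% (230% to 251%) in WT and 228% (220% to 237%) in IFT20-KO. In the unstimulated library the log2 ratios were 2.88 for Malat1, 2.68 for Neat1 and 3.42 for Kcnq1ot1.

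The wider list of nuclear-retained long noncoding RNAs held 11 genes with enough UMIs, the 3 label markers among them, and all 11 were past 2-fold higher in both libraries, where 33.9% of all genes were in WT and 29.8% in IFT20-KO. Its median log2 ratio, 3.19 in WT and 2.50 in IFT20-KO, is that of Malat1 itself and adds nothing to it. Pvt1 stood at 3.79 and 3.03, Jpx, an activator of Xist, at 3.52 and 3.08, Ftx at 3.21 and 2.61, Tug1 at 2.69 and 2.36, and Mir17hg, the host of the miR-17-92 cluster, at 2.72 and 1.56. Gm42418 (chr17:39846958-39848788, plus strand) and its neighbour Gm26917 overlap ribosomal RNA sequence, so their UMIs may not be transcripts of these genes. Gm42418 stood at 23028 CPM against 4202 in WT and 11025 against 3233 in IFT20-KO, and per barcode it was at 62.4% and 61.7% of the high-UMI level. As a sum, the list held 3.94% of nuclear-encoded UMIs in WT against 0.568%, and 2.15% against 0.482% in IFT20-KO, with 70.3% and 63.4% of it in Gm42418 and Gm26917. Without these genes it held 1.17% against 0.122% in WT and 0.789% against 0.133% in IFT20-KO. Low-UMI barcodes under the mitochondrial limit held 4.59% and 2.08% with both genes, and 0.442% and 0.556% without them.

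mRNAs known to hold detained introns, which keeps the unfinished transcript in the nucleus, were also high. All 28 were higher in WT and 27 of 28 in IFT20-KO, where 73.0% and 74.97% of all genes were, and 21 and 19 were past 2-fold, where 33.9% and 29.8% of all genes were. The median log2 ratio was 1.80 in WT and 1.36 in IFT20-KO, so they lay above the median of all genes and below the noncoding RNAs. Summed over the list they stood at 32.1% of the high-UMI level per barcode in WT and 40.7% in IFT20-KO.

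**Figure D2:**
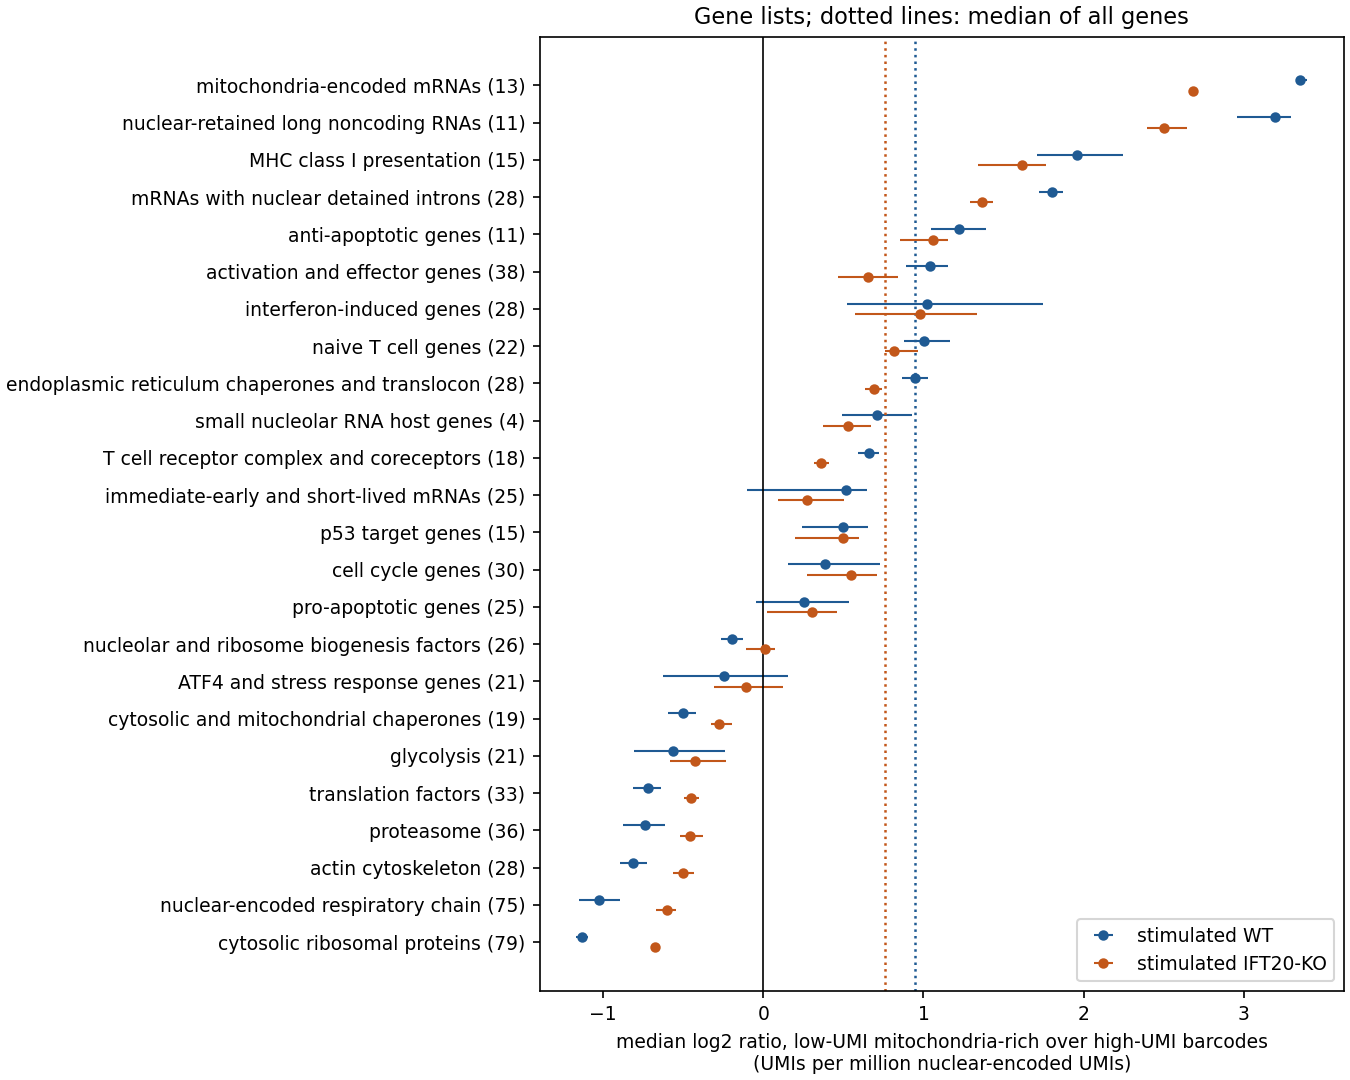
Median log2 ratio of each gene list (genes measured in WT in parentheses), low-UMI mitochondria-rich over high-UMI barcodes, in CPM. Bars join the medians of the genes' lower and upper counting limits, and dotted lines mark the median of all genes (0.95 in WT, 0.76 in IFT20-KO). Nuclear-retained RNAs lie far to the right, at 3.19 and 2.50, and cytosolic ribosomal proteins to the left, at -1.13 and -0.68. The mitochondria-encoded mRNAs were used to choose the barcodes.

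Leaving out the marker lists of other blood cells, cytosolic ribosomal proteins, whose mRNAs are short and abundant, had the lowest list median in both libraries. All 79 measured ribosomal protein genes were lower in both libraries, with a median log2 ratio of -1.13 in WT and -0.68 in IFT20-KO. In WT 56 of them were past 2-fold lower, where 1.9% of all genes were, and in IFT20-KO none was, where 0.0473% were. Together they made up 14.5% of nuclear-encoded UMIs in WT against 31.8% in high-UMI barcodes, and 20.4% against 32.7% in IFT20-KO. Rpl14, a protein of the large subunit, stood at 1416 CPM against 3542 in WT and 1932 against 3573 in IFT20-KO, with log2 ratios of -1.32 and -0.89. Per barcode Rpl14 was at 4.55% of the high-UMI level in WT (4.44% to 4.67%) and 9.78% in IFT20-KO (9.65% to 9.92%).

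Other lists of soluble or imported proteins also had medians below 0, with members on both sides. Of 75 nuclear-encoded respiratory chain genes, 3 were higher in WT and 2 in IFT20-KO, against 73.0% and 74.97% of all genes, with medians of -1.03 and -0.60. Atp5g3, a subunit of the ATP synthase, stood at -1.15 and -0.72. Cycs, cytochrome c, which was in the pro-apoptotic list and was its lowest gene, stood at -1.37 and -0.83. The highest gene of the respiratory chain list was Sdha, the flavoprotein of succinate dehydrogenase, at 0.54 and 0.41. The proteasome list had medians of -0.74 and -0.46, translation factors -0.72 and -0.45, the actin cytoskeleton -0.81 and -0.50, and glycolysis -0.56 and -0.43. Of 21 glycolysis genes, 8 were above 0 in both libraries. In WT 3 were past 2-fold higher (14.3%, against 33.9% of all genes) and 5 lower (23.8%, against 1.9%). In IFT20-KO 2 were past 2-fold higher (9.52%, against 29.8%) and none lower, where 0.0473% of all genes were. Actb stood at -0.69 and -0.41, Pfn1, an actin monomer binding protein, at -1.26 and -0.76, Ldha, lactate dehydrogenase, at -1.10 and -0.84, and Eef1a1, the elongation factor, at -0.88 and -0.48. Lcp1, an actin bundling protein, went the other way at 1.16 and 0.97.

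In 2 pairs of ER and cytosolic chaperones, picked after their values were seen, the chosen barcodes held the mRNAs at widely different levels. Hspa5 (BiP) and Hspa8 (HSC70) are Hsp70 chaperones of the ER and of the cytosol, and Hsp90b1 (GRP94) and Hsp90ab1 are the Hsp90 chaperones of the same places. Hspa5 stood at 3135 CPM against 455 in WT, a log2 ratio of 2.78 (2.76 to 2.81), and at 2071 against 442 in IFT20-KO, a log2 ratio of 2.23. Hspa8 stood at 2066 against 3773 in WT, a log2 ratio of -0.87 (-0.90 to -0.84), and at 2752 against 3708 in IFT20-KO, a log2 ratio of -0.43. Per barcode, Hspa5 was at 78.4% (76.9% to 79.9%) and 84.8% (83.4% to 86.2%) of its high-UMI level and Hspa8 at 6.24% (6.10% to 6.37%) and 13.4% (13.3% to 13.6%). Hsp90b1 stood at 2284 against 445 in WT and 1513 against 433 in IFT20-KO, with log2 ratios of 2.36 and 1.80. Hsp90ab1 stood at 3616 against 7369 in WT and 4841 against 7556 in IFT20-KO, with log2 ratios of -1.03 and -0.64. Per barcode this was 58.5% and 63.2% for Hsp90b1, and 5.59% and 11.6% for Hsp90ab1. In the list of cytosolic and mitochondrial chaperones, 1 of 19 genes was higher in WT and 4 of 20 in IFT20-KO, against 73.0% and 74.97% of all genes. The highest of that list was Hspa4, with a log2 ratio of 0.62 in both libraries.

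The members of each chaperone pair differ at the start of their coding sequence, shown here because ER targeting of the mRNA goes through the signal peptide encoded there. The first 30 codons are printed from the GENCODE M21 transcripts (GRCm38), 5′ to 3′, with capitals for a stretch of 19 codons whose residues average 1.6 or more on the Kyte-Doolittle hydropathy scale, called a hydrophobic window. Hspa5 lies in chr2:34771970-34777547 (plus strand), Hspa8 in chr9:40800984-40810087 (plus strand), Hsp90b1 in chr10:86690209-86705509 (minus strand) and Hsp90ab1 in chr17:45567775-45573271 (minus strand). The pairs were chosen for display after their values were seen.
Hspa5: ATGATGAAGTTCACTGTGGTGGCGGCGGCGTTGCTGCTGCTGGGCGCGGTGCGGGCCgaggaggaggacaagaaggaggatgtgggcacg
Hspa8: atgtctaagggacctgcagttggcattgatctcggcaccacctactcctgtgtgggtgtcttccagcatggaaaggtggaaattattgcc
Hsp90b1: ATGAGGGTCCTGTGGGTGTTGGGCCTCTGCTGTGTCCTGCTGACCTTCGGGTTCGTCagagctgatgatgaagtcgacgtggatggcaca
Hsp90ab1: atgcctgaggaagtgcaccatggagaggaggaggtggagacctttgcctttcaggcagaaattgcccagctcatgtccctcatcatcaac

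In Hspa5 and Hsp90b1 the most hydrophobic stretch is codons 1 to 19, with means of 1.78 and 2.18. In Hspa8 and Hsp90ab1 no stretch reaches the limit: the highest means are 1.45 at codons 396 to 414 and 1.43 at codons 650 to 668.

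Across the list of ER chaperones and translocon genes, 18 of 28 (64.3%) were higher in both libraries, where 73.0% of all genes were in WT and 74.97% in IFT20-KO. Past 2-fold higher were 14 in WT (50%, against 33.9%) and 10 in IFT20-KO (35.7%, against 29.8%). The list's median, 0.95 in WT and 0.69 in IFT20-KO, did not stand above the median of all genes, since the list was split. Hyou1, a large ER chaperone, stood at 2.83 and 2.32, Pdia3, a disulfide isomerase, at 2.34 and 1.81, Canx, the membrane lectin calnexin, at 2.27 and 1.84, and Sec61a1, the channel of the translocon, at 1.66 and 1.23. Sec61g and Sec61b, the small tail-anchored subunits of that channel, stood at -1.39 and -0.79 and at -1.27 and -0.74, and Srp14, of the signal recognition particle, which works in the cytosol, at -1.16 and -0.70. The 22 genes of the list with a hydrophobic window had a median of 1.26 in WT and 1.00 in IFT20-KO, and the 6 without one -0.31 and -0.22. The list summed to 1.61% of nuclear-encoded UMIs in WT against 0.658%, and to 1.23% against 0.646% in IFT20-KO.

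**Figure D3:**
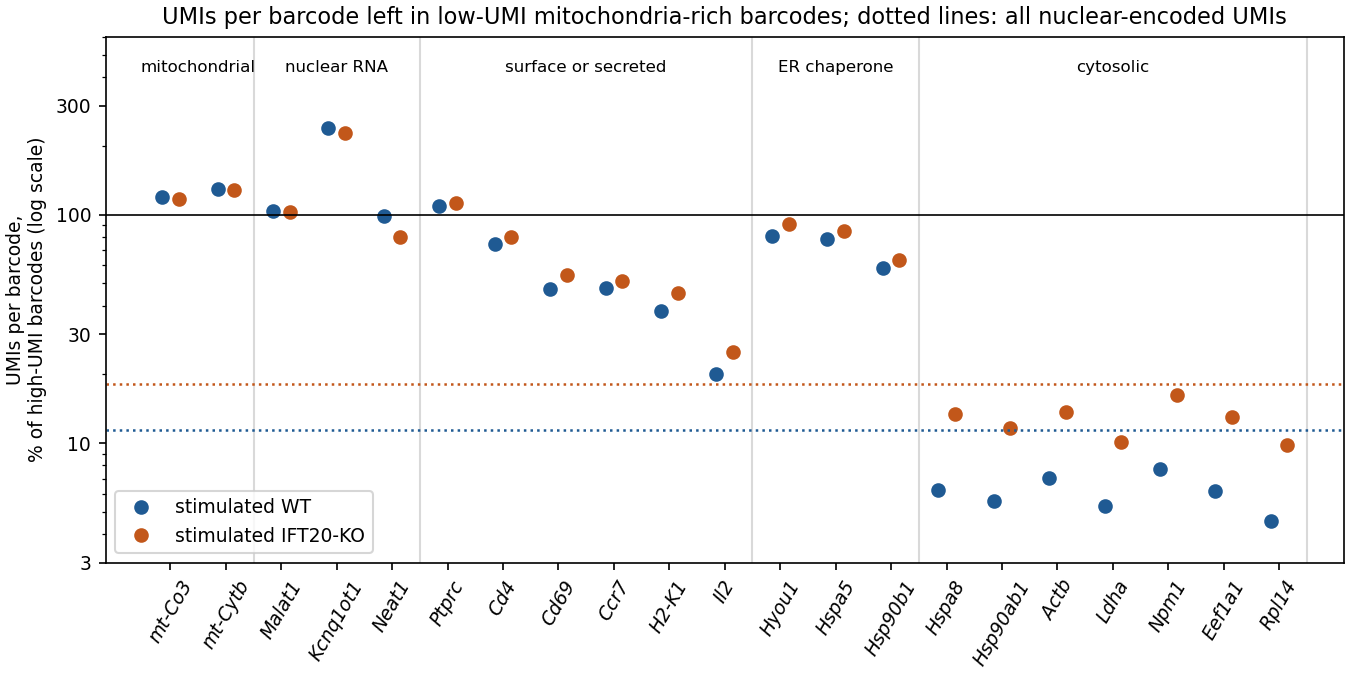
UMIs per barcode in low-UMI mitochondria-rich barcodes as a percentage of the high-UMI level (log scale), for 21 genes in stimulated WT and IFT20-KO. Dotted lines mark all nuclear-encoded UMIs (11.4% and 18.1%), and the solid line 100%. Mitochondrial RNAs and the nuclear RNAs Malat1 and Kcnq1ot1 lie near or above 100%, and Neat1 is at 98.6% in WT and 79.4% in IFT20-KO. Surface, secreted (Il2) and ER chaperone mRNAs lie between 20.1% and 112%, and cytosolic mRNAs below the dotted line of their library.

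The genes of the T cell receptor complex and its coreceptors were spread widely. Cd4, the coreceptor, stood at 672 CPM against 103 in WT, a log2 ratio of 2.70 (2.64 to 2.76), and at 557 against 126 in IFT20-KO, a log2 ratio of 2.15, or 74.1% (71.1% to 77.3%) and 80.1% (77.6% to 82.6%) of the high-UMI level per barcode. Ptprc, which encodes the phosphatase CD45, had log2 ratios of 3.25 and 2.63 and stood at 109% and 112% per barcode. Cd5, an inhibitory coreceptor, had log2 ratios of 1.79 and 1.30, and Cd28, the costimulatory receptor, 1.75 and 1.39. The chains of CD3 had smaller ratios, with Cd3g at 0.46 and 0.16, Cd3d at 0.39 and 0.13, and Cd3e at 0.34 and 0.17. The constant regions of the receptor were below 0, with Trac at -0.42 and -0.20, Trbc1 at -0.90 and -0.48 and Trbc2 at -0.93 and -0.57, and so were the cytosolic kinases Lck, at -0.42 and -0.31, and Zap70, at -0.31 in both. Over the 18 genes of the list, 7 in WT (38.9%, against 33.9% of all genes) and 5 in IFT20-KO (27.8%, against 29.8%) were past 2-fold higher and none lower, and the medians of 0.66 and 0.36 lay below those of all genes.

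Cd4 and Cd69 are shown as examples of single membrane-spanning segments, in capitals, with the 5 codons before and 6 after. Cd4 lies in chr6:124864692-124888221 and Cd69 in chr6:129267325-129275436, both on the minus strand, and the codons printed are 394 to 423 and 38 to 67.
Cd4: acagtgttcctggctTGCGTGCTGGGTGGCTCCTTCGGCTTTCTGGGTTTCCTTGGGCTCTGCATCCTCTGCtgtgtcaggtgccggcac
Cd69: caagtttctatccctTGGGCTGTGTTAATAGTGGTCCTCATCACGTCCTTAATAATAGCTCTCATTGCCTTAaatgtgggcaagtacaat

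mRNAs of activation were present in these barcodes, and the list as a whole stood near the background. Cd69, an early activation marker, stood at 1153 CPM against 278 in WT and had log2 ratios of 2.05 and 1.59. Il2ra, the high-affinity IL-2 receptor chain, stood at 500 against 177 in WT, with log2 ratios of 1.49 and 1.23. Il2rg had log2 ratios of 1.99 and 1.45, Ctla4 2.37 and 1.89, Cd44 2.49 and 2.17, Icos 2.08 and 1.77, and Lag3 2.18 and 1.65. Il2, the secreted growth factor, stood at 212 CPM against 120 in WT, with log2 ratios of 0.82 and 0.47, or 20.1% (18.7% to 21.5%) and 25.1% (23.5% to 26.8%) per barcode, and its 882 UMIs in WT came from 249 barcodes. Some induced genes were lower, among them Nr4a1 at -0.72 and -0.41, Myc at -0.62 and -0.26, and Nfkbia, the NF-κB inhibitor, at -0.71 and -0.40. Of 25 immediate-early genes, 17 (68%) were higher in both libraries, against 73.0% and 74.97% of all genes. Ifng had a log2 ratio of 3.32 in WT, but 60 of its 95 UMIs lay in 1 barcode, and IFT20-KO held 4 UMIs. Over the 38 genes, 15 in WT (39.5%, against 33.9% of all genes) and 9 in IFT20-KO (23.7%, against 29.8%) were past 2-fold higher and none lower, with medians of 1.04 and 0.65 against 0.95 and 0.76.

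Genes of naive T cells had a list median near that of all genes. In both libraries 20 of 22 were higher (90.9%), where 73.0% of all genes were in WT and 74.97% in IFT20-KO. Ccr7, the lymph node homing receptor, stood at 2037 CPM against 487 in WT, with log2 ratios of 2.06 and 1.49 and 47.6% and 51.0% of the high-UMI level per barcode. Il7r, the IL-7 receptor chain, had log2 ratios of 3.25 and 2.61, and S1pr1, the egress receptor, 2.91 and 2.58. Against low-UMI barcodes under the mitochondrial limit, Il7r stood at 0.11 (-0.65 to 0.98) in WT and 0.12 (-0.25 to 0.51) in IFT20-KO. The naive list's medians in that comparison were 0.18 and 0.13, where all genes stood at 0.56 and 0.18. The list's medians of 1.01 and 0.82 lay close to those of all genes, with 11 of 22 in WT (50%, against 33.9%) and 9 of 22 in IFT20-KO (40.9%, against 29.8%) past 2-fold higher. The 7 naive genes with a hydrophobic window had medians of 2.06 and 1.49, and the 15 without one 0.83 and 0.80. MHC class I presentation had medians of 1.96 and 1.61. Past 2-fold higher were 11 of 15 genes in WT (73.3%, against 33.9% of all genes) and 10 of 15 in IFT20-KO (66.7%, against 29.8%). H2-K1, a heavy chain, had log2 ratios of 1.74 and 1.32, Tap1 and Tap2, the peptide transporter, 2.21 and 1.70 and 2.63 and 2.02, while the small light chain B2m stood at 0.23 and 0.16 and Psmb8, of the immunoproteasome, at -0.69 and -0.36.

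Genes of cell death had no common direction. Pro-apoptotic genes had medians of 0.25 in WT and 0.30 in IFT20-KO, with 5 of 25 and 4 of 26 past 2-fold higher, a share under the background of 33.9% and 29.8%. Apaf1, the apoptosome scaffold, stood at 2.60 and 1.99 and Bax, which permeabilizes the outer mitochondrial membrane, at -0.97 and -0.61. Anti-apoptotic genes had medians of 1.22 and 1.06, with Bcl2 at 2.27 and 1.75 and Xiap, a caspase inhibitor, at 2.58 and 2.11. Of 11 measured, 9 were higher in both libraries (81.8%, against 73.0% and 74.97% of all genes), and Bcl2a1d was lowest at -1.47 and -0.93. Past 2-fold higher were 6 in WT (54.5%, against 33.9%) and 4 in IFT20-KO (36.4%, against 29.8%). Against low-UMI barcodes under the mitochondrial limit, the anti-apoptotic median was 0.39 in WT and 0.20 in IFT20-KO, where all genes stood at 0.56 and 0.18. p53 targets had a median of 0.50 in both libraries, and ATF4 and stress response genes -0.25 and -0.11. The cell cycle list had medians of 0.39 and 0.55, with Mki67, a marker of cycling cells with a long mRNA, at 60.2 CPM against 7.36 in WT and 82.5 against 12.3 in IFT20-KO, and Cdk1 at -0.82 and -0.13. Interferon-induced genes had medians of 1.02 and 0.98, nucleolar factors -0.19 and 0.01, cytosolic and mitochondrial chaperones -0.50 and -0.28, immediate-early genes 0.52 and 0.27, and the 4 measured small nucleolar RNA hosts 0.71 and 0.53.

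The 15 highest genes named by the rule included Lncpint, St8sia4, Kcnq1ot1, A430078G23Rik, Gm20696, 4732440D04Rik, Gm26917, Tmem131l, Insr, Sntb1, Pag1, Npc1, Ulbp1 and Cers6, and the 15 had log2 ratios of 3.86 to 4.66 in WT and 3.29 to 3.76 in IFT20-KO. Tmem131l, a transmembrane protein, stood at 810 CPM against 46.7 in WT and 558 against 53.5 in IFT20-KO, which was 198% and 189% of the high-UMI level per barcode. Insr, the insulin receptor, stood at 194% and 212% per barcode, and St8sia4, a sialyltransferase of the Golgi, at 260% and 236%. Under the rule, 14 of the 15 in WT and 13 in IFT20-KO passed the minimum of 50 CPM only through the chosen barcodes, so they had to be high there, and their spans, from 3.33 kb to 409 kb, are given as a description. All 15 were also higher in the unstimulated library, by 1.96 to 3.78 on the log2 scale, where 74.2% of all genes were higher.

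The 15 lowest genes named by the rule were Taf10, Alyref, Ube2m, Cdc34, Gm26825, Gnl1, Ppp1r14b, Drap1, Gnb1, Bola3, Srsf9, Rps27l, Fam162a, Gm10076 and Rpl14, with log2 ratios of -2.38 to -1.0 in WT and -1.84 to -0.89 in IFT20-KO. Taf10 (chr7:105739393-105744361, minus strand), a subunit of the general transcription factor TFIID, stood at 46.0 CPM against 239 in WT, with log2 ratios of -2.38 and -1.52, or 2.19% (1.89% to 2.52%) and 6.29% (5.87% to 6.74%) of the high-UMI level per barcode. Alyref, an mRNA export adaptor, had log2 ratios of -2.28 and -1.44, and Ube2m, the conjugating enzyme for NEDD8, -1.94 and -1.42. In WT, Taf10, Alyref, Ube2m, Cdc34, Gm26825, Gnl1, Drap1, Srsf9 and Gm10076 reached 50 CPM only through the high-UMI barcodes. In IFT20-KO the same genes did, with Gnb1 in place of Taf10. These genes had to be low in the chosen barcodes. The spans of the 15, from 0.384 kb to 67.9 kb (Gnb1) with a median of 4.97 kb, are given as a description. In the unstimulated library, where 74.2% of all genes were higher, 14 of the 15 were lower, with intervals that span 0 for Gnb1, Ube2m and Gnl1. In IFT20-KO only 6 genes in all were past 2-fold lower, namely Taf10, Alyref, Ube2m, Gm26825, Gm28901 and Ccnb1ip1, of which the last 2 lay outside the naming rule.

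Gene and transcript length went with the ratio across all protein-coding genes. By longest annotated transcript, the median log2 ratio was -0.94 in WT and -0.52 in IFT20-KO up to 1 kb, -0.25 and -0.11 from 1 to 2 kb, 0.76 and 0.62 from 2 to 4 kb, 1.59 and 1.30 from 4 to 8 kb, and 2.14 and 1.74 above 8 kb. By genomic span it was -0.56 and -0.28 up to 3 kb and 2.44 and 2.05 above 300 kb. Spearman's rho across genes was 0.53 and 0.54 with transcript length (11523 and 11515 genes) and 0.49 in both with span. Genes are not independent, and length, exon number and expression level vary together.

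**Figure D4:**
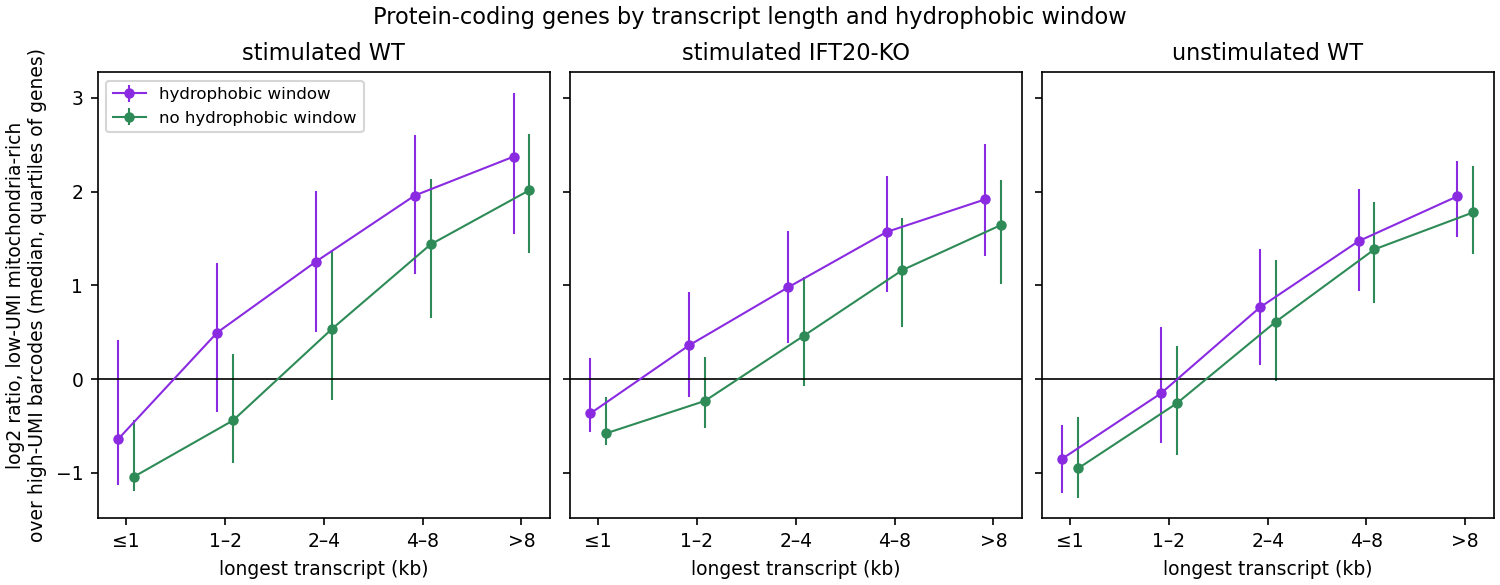
Median log2 ratio (points) and quartiles over genes (bars) of protein-coding genes by longest transcript in kb, with (purple) and without (green) a hydrophobic window, in the stimulated WT, stimulated IFT20-KO and unstimulated WT libraries. In all 3 the ratio is higher for longer transcripts. The gap between purple and green at 1 to 2 kb is 0.50 against -0.44 in stimulated WT, 0.36 against -0.23 in stimulated IFT20-KO and -0.15 against -0.26 in unstimulated WT.

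In the stimulated libraries the median was higher for genes with a hydrophobic window at each transcript length, with wide overlap between genes. Genes with one (3640 in WT and 3636 in IFT20-KO) had medians of 1.41 and 1.13, and genes without (7808 and 7805) 0.65 and 0.55. Within transcripts of 2 to 4 kb the medians were 1.25 (quartiles 0.50 and 2.01) against 0.53 (-0.22 and 1.37) in WT and 0.98 against 0.46 in IFT20-KO, and within 4 to 8 kb they were 1.96 against 1.44 and 1.57 against 1.16. In the respiratory chain list, split in the same way after values were seen, the 22 genes with a window had medians of -1.02 and -0.59, and the 53 without -1.03 and -0.62.

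The unstimulated library showed the length relation but little of the secretory one. By transcript length its medians ran from -0.92 up to 1 kb to 1.87 above 8 kb, and genes with and without a window stood at 1.01 and 0.75. Genes with a window had the higher median at each transcript length here too, with 0.76 against 0.61 at 2 to 4 kb and 1.47 against 1.39 at 4 to 8 kb. Against a median of 0.84 over all genes of that library, the ER list had a median of -0.25, with Hspa5 at 1.46, Hsp90b1 at 1.13 and Pdia3 at 0.18. Cd4 stood at 1.10, H2-K1 at 0.16, Ccr7 at 0.03 and Cd3d at -0.96, so Pdia3, H2-K1, Ccr7 and Cd3d lay below that median. Cd3d lay below the median of all genes in both stimulated libraries too. Ribosomal proteins had a median of -1.35 in the unstimulated library, and nuclear-retained noncoding RNAs 2.79. High-UMI barcodes of that library were 1340, or 16.2% of it, against 71.7% of stimulated WT and 48.6% of stimulated IFT20-KO. The median total of all unstimulated barcodes was 4576 UMIs, so the comparison group there is the upper part of the range. The difference from the stimulated libraries was not tested.

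WT and IFT20-KO gave much the same picture at different size, and each was compared with its own high-UMI barcodes. Across 12136 genes measured in both, the Pearson correlation of the log2 ratios was 0.91, and 92.6% of genes had the same sign. Of 4283 genes past 2-fold higher in WT, 3495 (81.6%) were so in IFT20-KO, where 3726 were in all. All 241 genes past 2-fold lower in WT were below 0 in IFT20-KO, and 6 were past 2-fold. The ratio was farther from 0 in WT for 81.9% of genes. Barcodes with a mitochondrial share of 4% to 6% numbered 84 in WT and 1908 in IFT20-KO, so the chosen groups differ in mitochondrial share as well as in genotype. At the same share of 8% to 12% (1102 and 1002 barcodes) Hspa5 stood at 3348 CPM in WT and 2212 in IFT20-KO, Malat1 at 10592 and 6954, and ribosomal proteins at 14.3% and 19.4% of nuclear-encoded UMIs. With 1 library each, genotype and library cannot be told apart.

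Sorted by mitochondrial share, the genes differed in where their levels changed. In WT, Hspa5 stood at 473 CPM below 1%, 600 from 1% to 4%, 2784 from 4% to 6% and 3348 from 8% to 12%, against 455 in high-UMI barcodes. In IFT20-KO it stood at 733, 1660, 1932 and 2212 in the same bands. Cd4 in WT stood at 62.4, 197, 569 and 704, and in IFT20-KO at 200, 446, 517 and 623. Ribosomal proteins made up 27.6%, 28.7%, 19.3% and 14.3% of nuclear-encoded UMIs in WT and 27.3%, 22.5%, 21.1% and 19.4% in IFT20-KO. In Hspa5 and ribosomal proteins the larger step in WT thus lay at the limit and in IFT20-KO below it, while Cd4 in WT stepped up both below and at the limit. Neat1 in WT stood at 75.8, 63.7 and 84.7 CPM in the first 3 bands, Malat1 at 3927, 4302 and 7221, and Kcnq1ot1 at 156, 175 and 436. In WT the latter 2 were thus lowest below 1% and Neat1 was not, but its values below 4% rest on few UMIs, from 177 and 82 barcodes. In IFT20-KO all 3 were lowest below 1%, with Neat1 at 29.6, 46.5 and 56.5. At 15% and above, where IFT20-KO held 12 barcodes, Hspa5 was lower, at 2139 in WT and 392 in IFT20-KO.

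**Figure D5:**
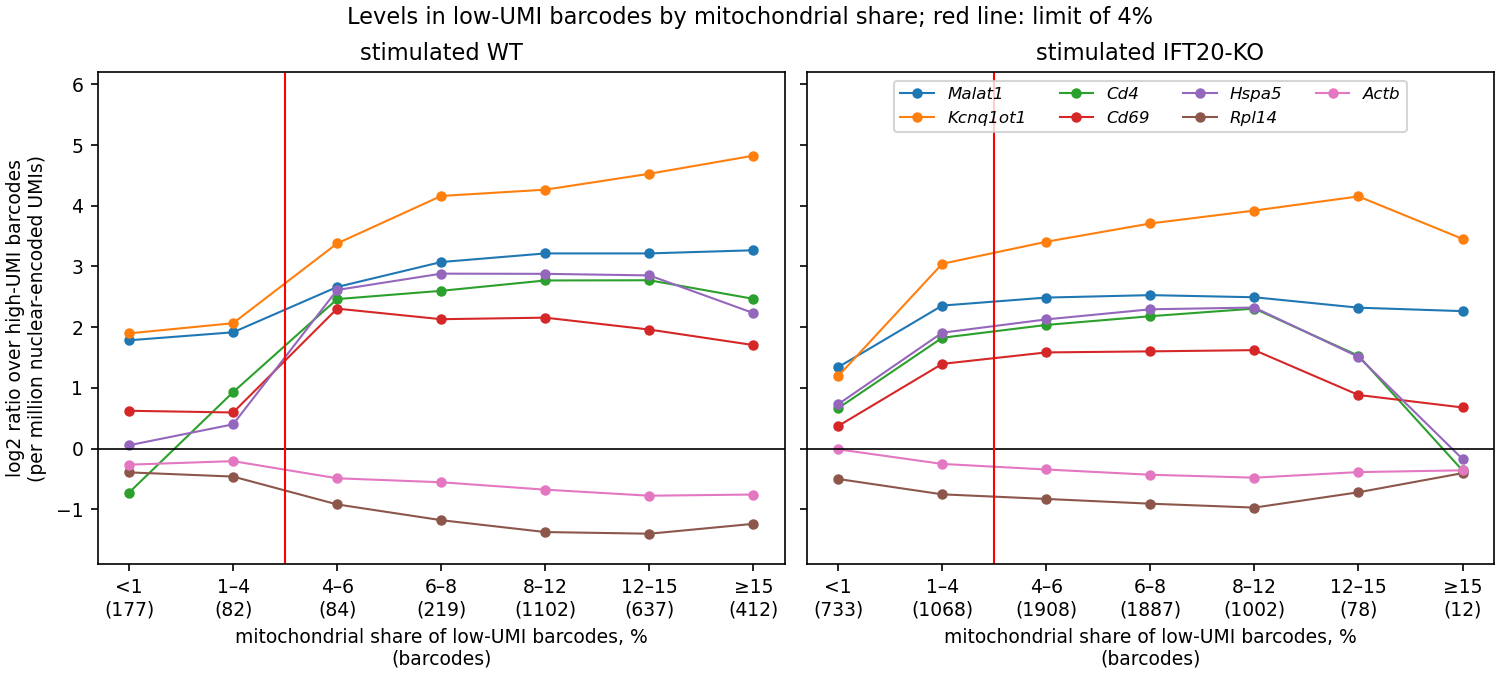
Log2 ratio over high-UMI barcodes (CPM) of 7 genes in low-UMI barcodes, by mitochondrial share in %, with the number of barcodes in parentheses and the 4% limit in red. In WT, Cd69 and Hspa5 step up between 1% to 4% and 4% to 6% and Cd4 across both of the first steps, while in IFT20-KO most of the step lies between the bands below 1% and of 1% to 4%. Rpl14 and Actb lie at or below 0 in every band.

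Against low-UMI barcodes with a mitochondrial share under 4%, of which there were 259 in WT and 1801 in IFT20-KO, the median of all genes was 0.56 in WT and 0.18 in IFT20-KO. The nuclear-retained noncoding RNAs stood at 1.35 and 0.60, the ER list at 1.21 and 0.27, and ribosomal proteins at -0.94 and -0.25. In WT that comparison group had a median of 1164 UMIs, and Gm42418 reached 39575 CPM in its barcodes below 1%.

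The chosen barcodes held mRNAs of T cell genes, with Cd3d at 1196 CPM against 915 in WT and 1023 against 936 in IFT20-KO. Its log2 ratios of 0.39 and 0.13 lay below the medians of all genes, 0.95 and 0.76. Of the 18 T cell receptor and coreceptor genes, 12 were higher and 6 lower in both libraries, with Trbc2 lowest at -0.93 and -0.57. The share higher, 66.7%, lay under that of all genes, 73.0% in WT and 74.97% in IFT20-KO. Markers of other blood cells were scarce. B cell markers made up 0.019% of nuclear-encoded UMIs in both kinds of barcode in WT and 0.020% against 0.021% in IFT20-KO, with Cd74 and Ighm the most abundant by UMIs and 2 genes at 0. CD8 and NK cell markers made up 0.004% against 0.002% in WT and 0.003% against 0.002% in IFT20-KO, led by Cd8b1. Myeloid markers made up 0.011% against 0.008% and 0.010% against 0.008%, led by Cst3, and the neutrophil and monocyte genes Lyz2, S100a8 and S100a9 were at 0 in WT. Erythroid markers gave 0 and 1 UMI. Ift20 (chr11:78536361-78541737, plus strand), the deleted gene, stood at 49.1 CPM in WT against 78.1 in high-UMI barcodes, and at 6.73 against 6.88 in IFT20-KO, which matches the library labels; free RNA of the same library would match them too.

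T cell receptor β variable segments gave a second view of what 1 barcode holds, since a T cell expresses few of them. With every barcode thinned to 500 nuclear-encoded UMIs and at least 2 Trbv UMIs required, a single segment was seen in 57.2% of chosen barcodes in WT (414 of 724, 53.5% to 60.8%) against 79.9% of high-UMI barcodes (992 of 1241), and in 39.9% (483 of 1212) against 68.0% (753 of 1108) in IFT20-KO. Low-UMI barcodes under the mitochondrial limit gave 31.6% (12 of 38) and 33.4% (117 of 350). Thinning does not match the Trbv UMIs, which were 2457 CPM in chosen against 1340 in high-UMI barcodes in WT. Among unthinned barcodes with exactly 2 Trbv UMIs, both were of 1 segment in 36.0% (31.0% to 41.2%) against 43.9% (37.2% to 50.9%) in WT and in 21.5% (18.6% to 24.6%) against 23.5% (17.6% to 30.3%) in IFT20-KO, and the intervals overlap. Of barcodes with at least 2 Trbv UMIs, these were 356 of 1641 chosen but 214 of 7088 high-UMI ones in WT. In IFT20-KO they were 753 of 4032 but 187 of 6606. High-UMI barcodes with so few Trbv UMIs are not typical of their group, so the overlap does not show that the groups are alike. Without thinning the WT values were 31.7% against 28.2%, and those of IFT20-KO 13.1% against 13.2%. RNA from other cells in the droplet adds segments of other clones, and its part in the ratios above was not tested. At 500 UMIs the median number of genes was 406 in chosen against 342 in high-UMI barcodes in WT, and 397 against 341 in IFT20-KO.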

How the data were processed

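The authors aligned reads of droplet-based (10x Genomics) libraries to mm10, called barcodes and counted UMIs with Cell Ranger, whose version the file headers give as 3.1.0. The tables deposited by the authors hold counts: 1 whole number of UMIs for each gene in each barcode, not normalized. All values were computed from these counts in Python 3.11.15 (pandas 2.3.3, scipy 1.17.1, numpy 2.4.6). Counts were summed over the barcodes of each group and divided by nuclear-encoded UMIs. A ratio's interval comes from the exact binomial limits of its UMIs, and shares have Clopper-Pearson intervals, both at 95% and for counting error only. Genes with fewer than 10 UMIs over both groups were left out, and no p-value was computed, since there was 1 library per condition. No doublet caller was run. The sources differ on whether a 3′ or a 5′ kit was used, so coverage along transcripts is uncertain. The members and the 28 gene lists were chosen with earlier results of these data known, and the hydrophobic window, transcript length and Trbv splits and the sum without Gm42418 and Gm26917 after values were seen.

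Genes were named if they mark the barcodes in the label, or are the 15 highest or lowest by the smaller absolute log2 ratio of both libraries where either group reached 50 CPM (T cell receptor and immunoglobulin segments left out), or, within each list, the most abundant and those with the highest and lowest ratio, plus Ift20; other list genes were named after their values were seen. Positions, lengths and coding sequences come from GENCODE M21 (GRCm38), in which 31011 of 31053 identifiers were found. Alternatives covered the UMI and mitochondrial limits, the study's filter, 3 other scalings, per-barcode means, subsets of the members and the low-UMI barcodes under 4% as comparison. Not every gene that the rule names is reported here.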

Additional observations from a re-analysis of the deposited data

How the results depend on the processing

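The share of low-UMI mitochondria-rich barcodes moved with most limits tried. The exceptions, within the counting interval of the reported share, were 24.1% in WT with a mitochondrial limit of 2%, and in IFT20-KO the study's filter and the common minimum. In WT it was 14.95% with a limit of 2028 UMIs, 20.8% with a mitochondrial limit of 8%, 20.6% after the study's filter and 19.9% at the common minimum of 1493 UMIs. In IFT20-KO it was 5.97% with 2028 UMIs, 7.84% at 8% and 41.3% at 2%. With 2028 UMIs or at 8% the share was higher in WT than in IFT20-KO, so the order of the libraries depends on the limits. Genes past 2-fold higher in WT were 24 on UMIs per barcode, 1779 with the median gene set to 0 and 691 against low-UMI barcodes under 4%. In IFT20-KO they were 17, 1395 and 16. Genes past 2-fold lower in WT were 477 with mitochondrial UMIs in the denominator, 8131 per barcode, 1923 with the median gene set to 0, 1020 without the interval and 68 against low-UMI barcodes under 4%, and in IFT20-KO 11, 7439, 1272, 206 and 1. The median of the nuclear-retained noncoding RNAs was 0.057 per barcode, 2.25 with the median gene set to 0 and 1.35 against low-UMI barcodes under 4% in WT, and 0.036, 1.74 and 0.60 in IFT20-KO; per barcode its counting limits, -0.18 to 0.16 and -0.07 to 0.18, span 0, so no direction is left on that scale.

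Counted per barcode, 13 of the 15 list medians above 0 in WT and 14 of 16 in IFT20-KO went below 0, as did 31 of 55 genes named by the rule in each library, and other genes of the text such as Cd4, Hspa5 and Hsp90b1 did too. Of lists past 2-fold in WT, the log2 medians were -1.33 for detained-intron mRNAs, -1.91 for anti-apoptotic genes and -1.18 for MHC class I, and the named genes past 2-fold that turned were Neat1 -0.021, Gm42418 -0.68, mt-Nd4 -0.086, Slc2a3 -0.18, Il2rg -1.14, Ccr7 -1.07, Apaf1 -0.54, Bcl2 -0.86, Xiap -0.55, Trp53inp1 -1.22, Slc7a11 -0.48, Lcp1 -1.98, Hyou1 -0.31, Gnl3 -1.38, Mki67 -0.10, Gbp5 -0.60, H2-K1 -1.40, Nlrc5 -0.094 and Snhg12 -1.50. In IFT20-KO they were -1.10 for detained-intron mRNAs and -0.85 for MHC class I, with Neat1 -0.33, Gm42418 -0.70, mt-Nd4 -0.048, Ogt -0.037, Slc2a3 -0.12, Il2rg -1.02, Ccr7 -0.97, Apaf1 -0.48, Bcl2 -0.72, Xiap -0.36, Trp53inp1 -0.80, Slc7a11 -0.35, Hyou1 -0.14, Gnl3 -1.18, Gbp5 -0.45, H2-K1 -1.14 and Snhg12 -1.12. This follows from the scale, on which the nuclear average itself is -3.13 in WT and -2.47 in IFT20-KO. Against low-UMI barcodes under 4%, Gm26917 stood at -1.25 in WT, Gm42418 at -0.41 in WT and -0.30 in IFT20-KO, and Fosb at -0.010 in WT. With a limit of 8%, Ifng stood at -0.042 in WT; the cause was not tested. The other values over all alternatives include those under 2-fold that turned per barcode. Of these other values, 779 of single genes and 328 of lists moved by less than their counting interval, and 830 and 173 by more.

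No paired analysis was possible because each condition had 1 library, so there was no replicate to leave out. Low counts limit single genes: 60 of the 95 UMIs of Ifng in WT lie in 1 barcode, and marker lists of other cells on few UMIs. The members in IFT20-KO are cut from a continuous range of mitochondrial shares.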
